A study of Homo sapiens with 14 samples.

Results

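SR proteins, heterogeneous nuclear ribonucleoproteins (hnRNPs) and a set of tissue splicing regulators were followed in Kasumi-1 cells. Members were chosen by gene symbol from 2 deposited gene tables: SRSF followed by a number, the prefix HNRNP (with HNRNPA2B1, HNRNPC and pseudogenes outside the rule), and named members of the PTBP, MBNL, CELF and TRA2 families with QKI and RBFOX2. The rule gave 43 of 16405 genes in the table of the RBPMS knockdown and 44 of 12325 in that of RB98#, with 43 of the 12126 genes that both tables hold. With TRA2A and TRA2B counted among them there were 14 SR proteins, beside 20 hnRNPs and 10 tissue regulators. The readthrough gene HNRNPUL2-BSCL2 was a member in the RB98# table alone. Every member present had counts high enough to be tested.

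Kasumi-1 is a human acute myeloid leukaemia line whose chromosome translocation fuses RUNX1 to RUNX1T1, grown in culture as 1 line. In the first RNA-seq experiment 3 libraries came from cells with a scrambled shRNA (shCtrl) and 3 from cells with one that targets RBPMS (shRBPMS). Lentivirus was left for 48 h and puromycin for another 48 h, so controls too were infected and selected. In the second, cells received DMSO (n = 2) or RB98# (n = 2), at a dose and for a time that the labels do not give. Only 1 shRNA construct is named. The series holds 14 samples, of which 10 are these RNA-seq libraries and the 4 of the RIP and m6A assays are not analysed here. Nothing in the labels says that replicates are separate cultures, so p-values measure the spread between these libraries, which may be technical.

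SR proteins bind exonic sequences through RNA recognition motifs, recruit the spliceosome through arginine- and serine-rich domains, and commonly favour exon inclusion. Many hnRNPs coat nascent transcripts and often act through silencer sequences, while the PTBP, MBNL, CELF, QKI and RBFOX proteins are known for switching exons between tissues and during differentiation. Many of these genes also splice their own transcripts into forms degraded by nonsense-mediated decay, so that RNA level is part of how they are controlled. The values here are gene counts: they do not show which exons were used, and fewer producing cells and less RNA per cell cannot be told apart in bulk samples.

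Counts assigned to genes came to 24.03 to 34.4 M a library in the knockdown table and 13.9 to 15.3 M in the RB98# table (M, 1e+06 counts). Members took 1.49% to 1.86% and 1.76% to 1.98% of them. All 11 Kasumi-1 identity markers were listed in both tables, with summed levels of 14824 to 18430 CPM (counts per 1e+06 counts of the library, scaled by TMM factors) in shCtrl, most of it MPO (11593 to 16425 CPM). In the knockdown table the libraries stood in 2 label sets, given by the sample descriptions: replicate 1 of both groups (set 1) and replicates 2 and 3 (set 2). Mitochondrial genes took 13.2% and 15.2% of counts in set 1 and 6.20% to 6.95% in set 2. Chi-square per degree of freedom between replicates was 3.01 (shCtrl) and 3.03 (shRBPMS) within set 2, and 133 to 215 across sets. In the other experiment it was 2.24 between the DMSO libraries and 4.90 between the RB98# libraries. What a label set stands for is not given in the sources used here, and replicates 2 and 3 may be 2 libraries of 1 culture. The same holds for the DMSO pair and for the RB98# pair.

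RBPMS, an RNA-binding protein known as a splicing regulator in smooth muscle, was at 20.5, 7.27 and 7.42 CPM in shCtrl 1 to 3 and at 2.48, 3.35 and 3.09 CPM in shRBPMS 1 to 3. The groups did not overlap, and the 20.5 CPM library was that of set 1. Its log2 change was -1.96 (SE 0.45, edgeR adjusted p = 0.0846) with group alone in the fit and -1.79 (SE 0.35, edgeR adjusted p = 0.0106) with the replicate number as a block. With DMSO it was at 7.17 and 6.40 CPM and with RB98# at 6.62 and 8.06 CPM, overlapping ranges (log2 change 0.11, SE 0.19).

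Per kilobase of exon, HNRNPA1, which packages pre-mRNA and represses exons, had the highest level in both control groups, at 394 ± 77.1 CPM per kb in shCtrl (SD, n = 3) and 462 ± 10.4 in DMSO (SD, n = 2). SRSF2 (253 CPM per kb), SRSF1 (202) and HNRNPF (200.1) followed in DMSO, the last 2 with overlapping ranges. The order was not the same in shCtrl. There HNRNPK (192 CPM per kb), HNRNPAB (187) and HNRNPF (186) followed, with overlapping ranges, while SRSF2 was at 108 and SRSF1 at 49.1. PTBP1, the polypyrimidine tract binding protein of most non-neuronal cells, was at 82.7 CPM per kb in DMSO, its neural relative PTBP2 at 2.68 and its relative PTBP3, first described in blood cells, at 17.6. CELF2, known for its expression in lymphoid and neural cells, reached 45.8 CPM per kb. The lowest levels in DMSO were those of SRSF12 (1.93 CPM per kb) and MBNL2 (1.75), whose ranges overlapped. HNRNPA1 has many near-identical processed copies in the genome, so its level depends on how reads with several matches were counted, which is not given in the sources used here.

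**Figure D1:**
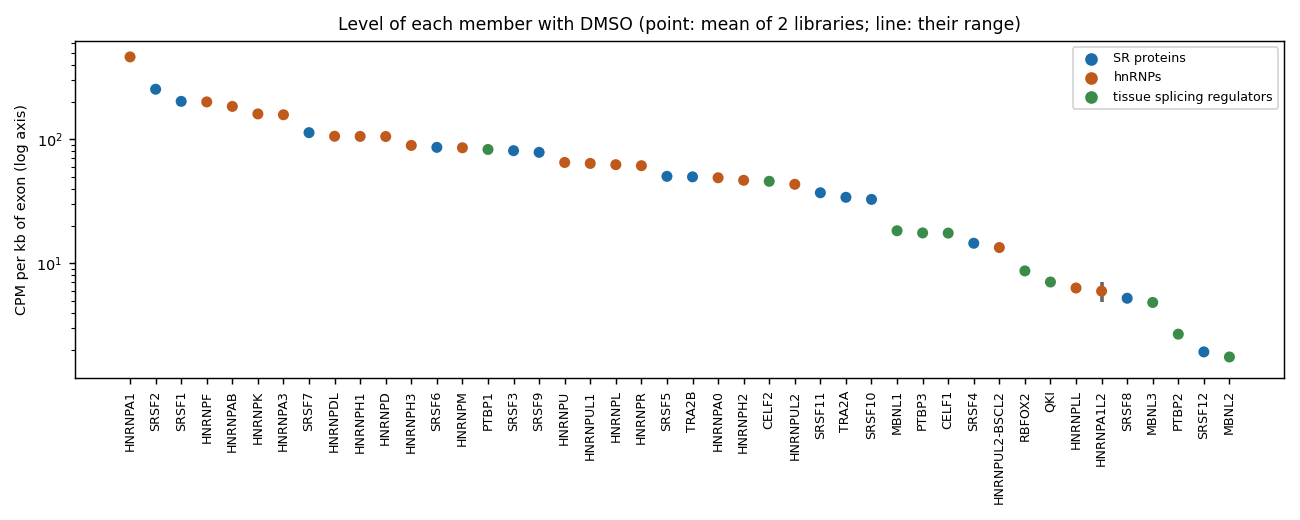
Level of each of the 44 members with DMSO, in TMM-scaled CPM per kb of exon on a log axis, ordered from high to low; points are means of 2 libraries, lines their range, and colours the 3 classes. HNRNPA1 stands highest at 462 CPM per kb and MBNL2 lowest at 1.75; 8 of the 10 tissue regulators lie in the lower right, from MBNL1 at 18.3 downwards.

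Of the 43 members in both tables, 40 had control levels within 2-fold of each other between shCtrl and DMSO, although the tables were scaled apart. The other 3 were SRSF1 (164 against 675 CPM), SRSF2 (327 against 764) and HNRNPUL2 (72.5 against 235). In GENCODE 29, on GRCh38, SRSF1 (chr17:58003360-58007346) shares 56.6% of its exon bases with AC015813.2 on the same strand. SRSF2 (chr17:76734115-76737374) shares 36.7% with MFSD11 on the opposite strand and HNRNPUL2 (chr11:62712630-62727472) shares 44.1% with HNRNPUL2-BSCL2. SRSF9, which shares 46.2% with GATC on the opposite strand, had control means of 264 and 294 CPM. Its shCtrl libraries were at 114 CPM in set 1 and at 340.1 and 339 CPM in set 2, so that mean spans unlike label sets. Whether the tables used different annotations or strand settings is not given, and the part of shared exons in these gaps was not tested.

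With RB98#, 25 of the 44 members passed edgeR's quasi-likelihood test at an adjusted p of 0.05 over all genes, 11 higher and 14 lower (56.8% of members, against 37.8% of the 12324 genes tested, 20.5% higher and 17.3% lower). Of the SR proteins 4 rose and 6 fell, of the hnRNPs 2 rose and 7 fell, and of the tissue regulators 5 rose and 1 fell. Class medians of the log2 change were -0.10 for SR proteins, -0.081 for hnRNPs and 0.30 for tissue regulators, beside -0.032 for all members and 6.5e-05 for all genes. The groups did not overlap for 17 members with RB98# above and 19 with RB98# below, a state that 68.3% of all genes tested shared. These counts describe the lists, and no difference between classes was tested. The shares of all genes, here and for the knockdown, were not limited to genes with counts like those of the members.

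Called changes ran from -1.11 (SRSF8, ENSG00000263465, chr11:95067197-95071224, plus strand) to 0.54 (MBNL1, ENSG00000152601, chr3:152243828-152465780, plus strand) on the log2 scale, with positions from GENCODE 29 on GRCh38. Scaling by library totals alone shifted the median of all genes to -0.10 and left 6 members higher and 20 lower, with 40.3% of all genes called: HNRNPH1, HNRNPK, QKI, SRSF4 and SRSF6 were no longer called higher, and no called member changed sign. On that scale 2 SR proteins, 0 hnRNPs and 4 tissue regulators were called higher and 8, 11 and 1 lower. With the replicate number as a block 21 members passed (35.9% of all genes). Without DMSO 1 the count of called members was 13, and without DMSO 2 it was 14; in these fits the lone DMSO library is assumed to vary like the RB98# pair. Over 10 settings, PTBP1, MBNL1, SRSF11, RBFOX2, PTBP3 and SRSF5 were called higher in each, and HNRNPDL, HNRNPH3, SRSF7, SRSF8 and SRSF3 lower in each. Of the 11 Kasumi-1 identity markers 9 were called with RB98#, 4 higher and 5 lower (2 and 5 on library totals), from -0.84 for CD33 to 0.37 for RUNX1T1. B cell markers (3 of 5 in the table) summed to 14.2 to 15.0 CPM with DMSO and 8.66 to 12.6 CPM with RB98#, and the part of both lists in these results was not tested.

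**Figure D2:**
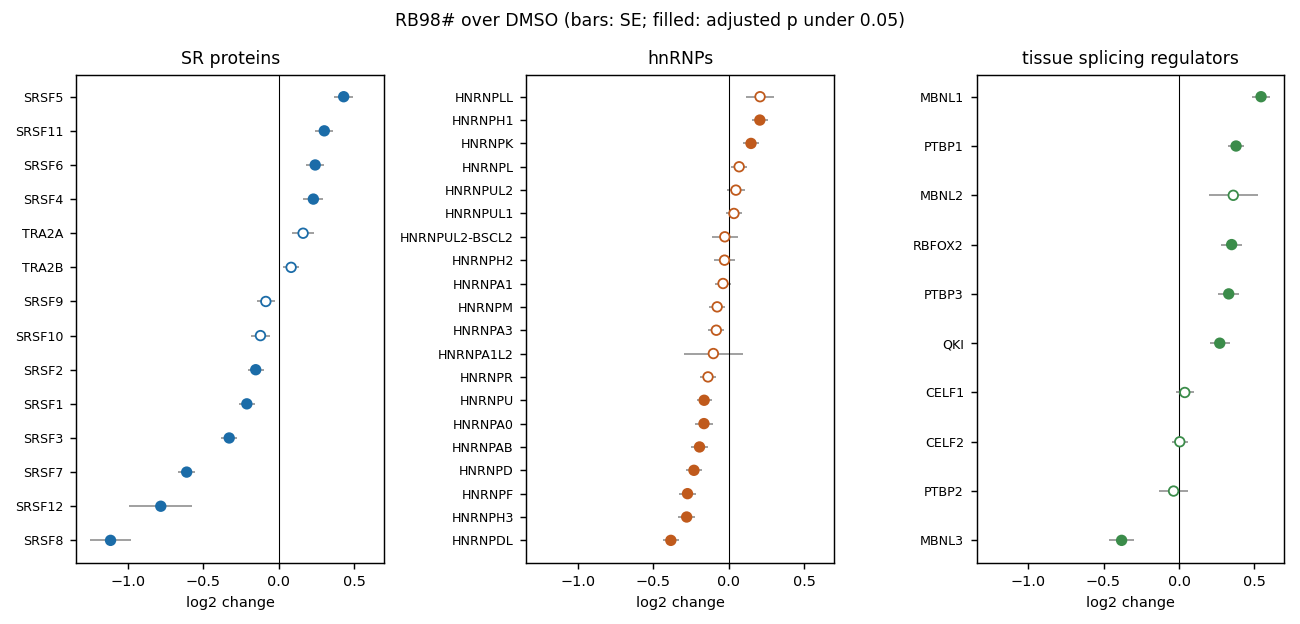
Log2 change of each of the 44 members, RB98# over DMSO, by class; points are estimates, bars their SE, and filled points passed an adjusted p of 0.05. SR proteins run from SRSF8 at -1.11 to SRSF5 at 0.43, most hnRNPs lie below 0, and tissue regulators run up to MBNL1 at 0.54 with MBNL3 at -0.38; with library totals as the scale SRSF4, SRSF6, HNRNPH1, HNRNPK and QKI are not called.

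Promoter sequences were found in RefSeq (GRCh38.p14, 250 bases before to 50 after the annotated start) for 39 of the 44 members. The letters GGGCGG (GC box) stood on either strand in 28 of the 39 (71.8%, against 44.6% of all 27305 promoters), and CACGTG (E-box) in 7 (17.9% against 7.43%). CCAAT stood in 15 (38.5% against 35.7%) and TATAAA in 4 (10.3% against 11.95%). The 27305 promoters were not limited to genes found in Kasumi-1, so these shares do not set members against other expressed genes. By response to RB98#, CCAAT was in 7 of 13 promoters of members that fell, 1 of 9 of those that rose and 7 of 17 of those not called. For CACGTG these counts were 3, 0 and 4, and for GGGCGG 9, 7 and 12. For CCAAT and CACGTG, members not called with RB98# were thus nearer to those that fell than to those that rose. These matches are a description of letters, not of bound sites. The other motifs searched, on both strands, were CCGGAAG (6 of 39), TGTGGT (3 of 39), TGAGTCA (1 of 39), GCGTGGGCG (1 of 39) and TGACGTCA (0 of 39).

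Stretches free of GENCODE exons are printed from 4 members that fell and 2 that rose with RB98#, chosen after their values were seen to show the motifs in place; capitals mark the CCAAT box, TATA box, GC box or E-box letters on either strand, and each runs 5' to 3' on the gene's strand. They are SRSF3 at chr6:36594212-36594352 (plus strand), HNRNPAB at chr5:178204383-178204506 (plus strand), SRSF8 at chr11:95066727-95066876 (plus strand), HNRNPD at chr4:82373992-82374118 (minus strand), SRSF6 at chr20:43457746-43457895 (plus strand) and PTBP3 at chr9:112333030-112333176 (minus strand), in GRCh38.p14.
SRSF3: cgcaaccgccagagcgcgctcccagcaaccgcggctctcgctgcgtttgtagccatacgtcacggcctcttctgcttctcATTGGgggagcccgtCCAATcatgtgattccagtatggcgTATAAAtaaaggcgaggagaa
HNRNPAB: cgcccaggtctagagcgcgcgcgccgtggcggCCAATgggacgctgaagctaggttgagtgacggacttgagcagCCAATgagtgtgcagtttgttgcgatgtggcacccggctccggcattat
SRSF8: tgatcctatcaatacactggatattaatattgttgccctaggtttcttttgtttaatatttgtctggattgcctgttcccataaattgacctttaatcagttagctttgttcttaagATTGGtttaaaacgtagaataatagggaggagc
HNRNPD: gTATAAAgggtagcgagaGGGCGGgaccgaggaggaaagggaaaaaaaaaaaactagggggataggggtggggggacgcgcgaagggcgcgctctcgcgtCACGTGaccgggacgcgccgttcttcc
SRSF6: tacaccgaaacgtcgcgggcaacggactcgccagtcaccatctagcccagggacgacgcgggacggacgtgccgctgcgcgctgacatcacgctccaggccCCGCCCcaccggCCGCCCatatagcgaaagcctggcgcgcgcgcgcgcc
PTBP3: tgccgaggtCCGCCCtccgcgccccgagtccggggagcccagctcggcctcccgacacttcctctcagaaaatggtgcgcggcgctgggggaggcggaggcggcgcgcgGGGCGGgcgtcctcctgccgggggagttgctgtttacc

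SRSF3 and HNRNPAB, which fell, each hold 2 CCAAT boxes, and SRSF3 a TATAAA downstream of them. SRSF8 holds 1 CCAAT box, in its reverse orientation. HNRNPD carries TATAAA, a GC box and an E-box. SRSF6 and PTBP3, which rose, hold GC boxes and none of the other 3 motifs in these stretches. The promoters searched did not divide so cleanly by response. CCAAT stood in 1 of 9 promoters of members that rose (PTBP1) and 7 of 13 of those that fell. For TATAAA the counts were 1 of 9 (SRSF11) and 3 of 13, and for GC boxes 7 of 9 and 9 of 13. SRSF7 and SRSF12, which fell, had GC boxes alone among these motifs, and SRSF1, which fell, had none of them. The promoter of HNRNPAB also held GC boxes and TATAAA outside its stretch.

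Among SR proteins, SRSF8, an intronless relative of SRSF2, had the lowest log2 change of the members. It was at 20.7 and 21.3 CPM with DMSO and at 9.56 and 9.86 CPM with RB98# (log2 change -1.11, SE 0.13, edgeR adjusted p = 4.70e-07). Both treated libraries were below both controls and the replicates nearly coincided. SRSF7, which carries a zinc knuckle and takes part in mRNA export, was at 459.6 and 455 CPM with DMSO and at 297 and 303 CPM with RB98# (log2 change -0.61, SE 0.056, edgeR adjusted p = 4.87e-09). SRSF3, the smallest SR protein and an adaptor for mRNA export, was at 563 and 588 CPM against 454 and 463 CPM (log2 change -0.33, SE 0.054, edgeR adjusted p = 3.89e-05). For both genes the groups were well separated beside the spread within a pair. SRSF12, a little expressed relative of SRSF10, was at 9.35 and 8.16 CPM against 3.96 and 6.27 CPM (log2 change -0.78, SE 0.21, edgeR adjusted p = 0.00461). In the authors' deposited values, which call 11 members higher and 13 lower with RB98#, SRSF12 was not called at 0.05. Its RB98# libraries differed from each other more than its controls did, and without RB98# 1 the change was -0.49 and not called.

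SRSF1, the founding SR protein and a known oncogene, was at 689.5 and 660.4 CPM with DMSO and at 587 and 579 CPM with RB98# (log2 change -0.21, SE 0.054, edgeR adjusted p = 0.00295). SRSF2, which is recurrently mutated in myeloid neoplasms, was at 764 and 764 CPM against 682 and 693 CPM (log2 change -0.15, SE 0.052, edgeR adjusted p = 0.0234). In both the ranges were apart; neither was called once either DMSO library was left out (log2 changes -0.18 and -0.24 for SRSF1, -0.15 and -0.15 for SRSF2). Reads of SRSF1 and SRSF2 may be shared with the overlapping genes named above.

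In the other direction, SRSF5, an SR protein known for its response to growth signals, was at 262 and 276 CPM with DMSO and at 383 and 341 CPM with RB98# (log2 change 0.43, SE 0.062, edgeR adjusted p = 6.39e-06). SRSF4, a longer SR protein, was at 131 and 127 CPM against 157 and 144 CPM (log2 change 0.23, SE 0.066, edgeR adjusted p = 0.00788). RB98# 1 was the higher of its pair for both genes. SRSF11 (0.30) and SRSF6 (0.24) also rose. TRA2A and TRA2B, SR-like proteins that activate exons with GAA-rich enhancers, were not called. TRA2A was at 120.03 and 119 CPM against 144 and 123 CPM (log2 change 0.16, SE 0.072) and TRA2B at 587 and 584 CPM against 629 and 609.7 CPM (0.082, SE 0.053, and -0.019 on the scale of library totals). SRSF9 and SRSF10 were not called either.

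Among hnRNPs, HNRNPDL, an RNA-binding protein related to HNRNPD, was at 573 and 585 CPM with DMSO and at 447 and 440.3 CPM with RB98# (log2 change -0.38, SE 0.054, edgeR adjusted p = 4.13e-06). It had the lowest value of the 7 hnRNPs that fell. HNRNPH3 (-0.28) and HNRNPF (-0.27), which bind G-rich runs, HNRNPD (-0.23) and HNRNPAB (-0.19), relatives in AU-rich RNA binding, HNRNPA0 (-0.17), and HNRNPU (-0.16), a nuclear scaffold protein, made up the rest. HNRNPH1 (0.20), another binder of G-rich runs, and HNRNPK (0.15), which binds C-rich RNA, rose, so members of the H/F group moved in both directions, although HNRNPH1 and HNRNPK were not called on the scale of library totals. HNRNPA1 was at 2313 and 2389 CPM with DMSO and at 2349 and 2228 CPM with RB98#. Those groups overlapped and the change was not called (log2 change -0.039, SE 0.050, edgeR adjusted p = 0.579). The 11 hnRNPs not called included HNRNPUL2-BSCL2, at 55.6 and 51.4 CPM against 50.4 and 54.7 CPM.

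The tissue regulators held the largest rise among members, that of MBNL1, a CUG-binding factor known for switching fetal to adult exon use. It was at 183 and 182 CPM with DMSO and at 278 and 254 CPM with RB98# (log2 change 0.54, SE 0.062, edgeR adjusted p = 2.05e-07). MBNL3, the muscleblind relative linked to the undifferentiated state in muscle, fell: it was at 60.9 and 56.8 CPM against 45.1 and 45.3 CPM (log2 change -0.38, SE 0.085, edgeR adjusted p = 0.00101). MBNL2 was at 9.42 and 7.78 CPM against 11.3 and 10.7 CPM (log2 change 0.36, SE 0.16, edgeR adjusted p = 0.0842). The muscleblind genes thus included 1 that rose, 1 that fell and 1 not called.

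PTBP1, which represses exons at pyrimidine-rich tracts, was at 566 and 573 CPM with DMSO and at 742 and 738 CPM with RB98# (log2 change 0.38, SE 0.053, edgeR adjusted p = 3.85e-06). PTBP3 was at 141 and 148 CPM against 197 and 167 CPM (log2 change 0.33, SE 0.071, edgeR adjusted p = 0.000718). PTBP2 was at 35.7 and 33.6 CPM against 35.2 and 32.3 CPM and was not called (-0.036, SE 0.097). RBFOX2, which binds GCAUG and acts by its position beside an exon, was at 87.7 and 85.9 CPM against 109 and 112 CPM (log2 change 0.35, SE 0.069, edgeR adjusted p = 0.000286). QKI, a STAR-family regulator of splicing and circular RNA, was at 123 and 122 CPM against 156 and 139.6 CPM (log2 change 0.27, SE 0.068, edgeR adjusted p = 0.00275). In these rises both RB98# libraries were above both controls. CELF proteins often oppose MBNL proteins at shared exons. CELF1 (178 and 188 against 189 and 187 CPM) and CELF2 (495 and 510.3 against 509.98 and 498 CPM), had overlapping groups and log2 changes of 0.038 and 0.0049, or -0.063 and -0.096 on the scale of library totals.

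**Figure D3:**
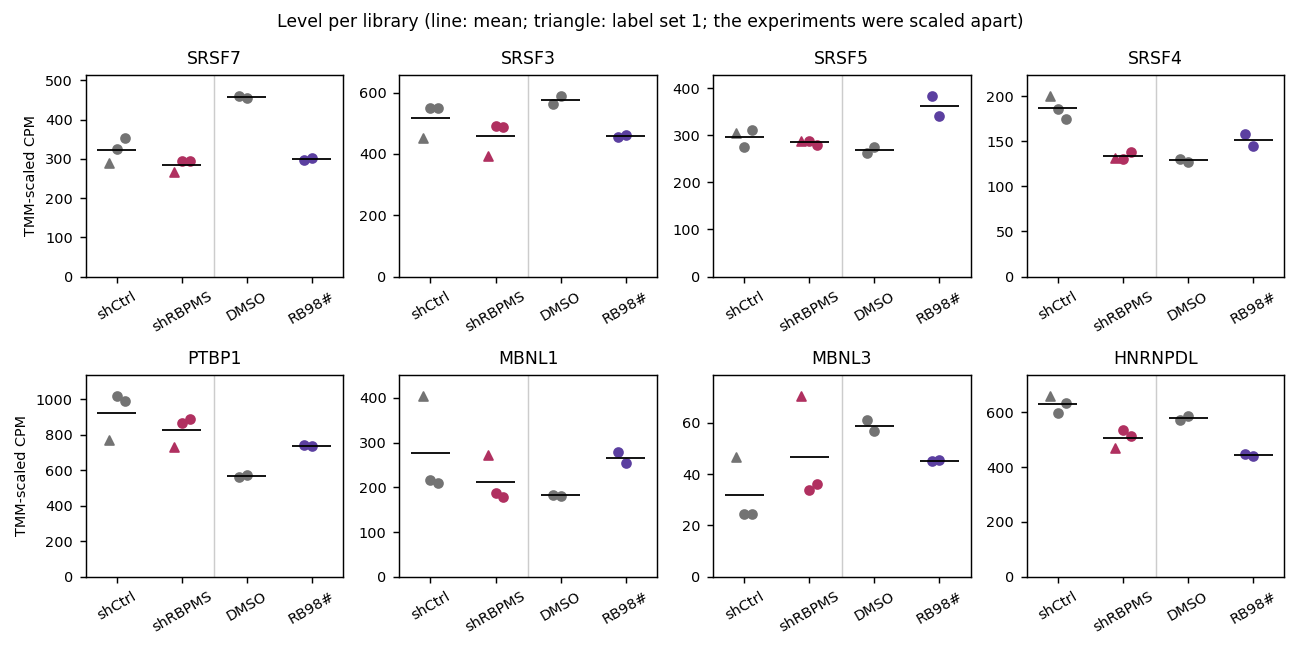
TMM-scaled CPM in each library of both experiments for 8 members; points are libraries, lines group means, triangles the set 1 libraries of the knockdown, and the grey line separates experiments that were scaled apart. SRSF7, SRSF3, MBNL3 and HNRNPDL are lower and SRSF5, SRSF4, PTBP1 and MBNL1 higher with RB98# (SRSF4 is not called on the scale of library totals); MBNL1 and MBNL3 stand higher in the set 1 libraries of the knockdown.

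With RBPMS knockdown, no member passed edgeR's test with group alone in the fit (0 of 43, where 1.97% of 16215 genes tested did, 0.629% higher and 1.34% lower). At an unadjusted p under 0.05 there were 2 members, and DESeq2 called 1, SRSF4, lower. The estimates were mostly negative all the same: 37 of 43 were below 0, with a median of -0.18 against 0.015 over all genes. Related lists, described below, leaned the same way. In this fit 10 of 12 genes of the SR kinase list and 17 of 20 SR-related proteins were below 0. So were 20 of 23 U1, U2 and Sm proteins and 11 of 17 tri-snRNP and Prp19 complex genes. Other splicing factors counted 20 of 29 and decay factors 10 of 15. The share of all genes with such signs was not counted, here or within label sets. Within both label sets the ratio was below 1 for 35 members and above 1 for 4, and it took opposite signs for 4. The shRBPMS libraries lay below all shCtrl libraries for 8 members and above them for 0, where 14.2% and 11.6% of all genes did (25.8% in all). These 8 were CELF1, HNRNPDL, HNRNPH1, HNRNPH2, PTBP3, SRSF4, SRSF10 and SRSF11.

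With the replicate number as a block, 18 of 43 members passed, 1 higher and 17 lower (41.9%, against 28.1% of all genes, 13.3% higher and 14.8% lower). By class, 6 SR proteins, 5 hnRNPs and 6 tissue regulators fell, and 1 tissue regulator rose. The block takes out the gap between label sets and counts replicates 2 and 3, which differed little from each other, as separate pairs. Once these were summed into 1 library a group, with the label set as a covariate, 3 members passed: MBNL3 higher, and SRSF4 and SRSF12 lower (16.4% of all genes, 7.73% higher and 8.62% lower). With the label set as a covariate and all 6 libraries apart, 27 members passed (35.8% of all genes). Set 2 alone gave 32, of which 29 were lower (42.2% and 21.7% of all genes).

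SRSF4 was at 199.9, 185 and 175 CPM in shCtrl and at 131, 130.5 and 138 CPM in shRBPMS. All 3 shRBPMS libraries were below all 3 controls, in both label sets. Its log2 change was -0.48 (SE 0.11, edgeR adjusted p = 0.0863) with group alone and -0.47 (SE 0.067, edgeR adjusted p = 0.00332) with the block. SRSF12 was at 22.6, 10.98 and 11.8 CPM against 12.1, 8.64 and 8.43 CPM, with shRBPMS 1 above the set 2 controls (blocked log2 change -0.57, SE 0.13, edgeR adjusted p = 0.0166). SRSF2 was at 381, 286 and 312 CPM against 294, 231 and 240.3 CPM, overlapping across label sets and lower within each (blocked log2 change -0.34, SE 0.056, edgeR adjusted p = 0.00560). TRA2B was at 466, 393 and 408 CPM against 419, 338 and 338 CPM (blocked log2 change -0.20, SE 0.060, edgeR adjusted p = 0.0457). SRSF6 and SRSF10 made up the 6 SR proteins that passed.

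The other SR proteins named with RB98# did not pass in either fit. SRSF1 was at 180.1, 156 and 155 CPM in shCtrl and at 158, 139.5 and 142 CPM in shRBPMS (blocked log2 change -0.15, SE 0.056). SRSF3 was at 451, 550.3 and 551 CPM against 394, 492 and 489.5 CPM (-0.16, SE 0.056), and SRSF7 at 289.6, 325 and 353 CPM against 267, 294 and 293 CPM (-0.16, SE 0.062). Each was lower with shRBPMS within both label sets. SRSF5 was at 305, 274 and 312 CPM against 288, 288 and 280.4 CPM (-0.045, SE 0.065) and SRSF8 at 17.0, 12.02 and 12.3 CPM against 19.9, 13.8 and 11.5 CPM (0.12, SE 0.11), with overlapping groups. TRA2A was at 129.8, 99.0 and 105 CPM against 113, 100.3 and 101 CPM (-0.063, SE 0.064).

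HNRNPDL was at 657, 596 and 635 CPM in shCtrl and at 471, 536 and 513 CPM in shRBPMS. The groups did not overlap (blocked log2 change -0.30, SE 0.072, edgeR adjusted p = 0.0211). HNRNPD, HNRNPF, HNRNPH1 and HNRNPK were the other hnRNPs that fell in the blocked fit. HNRNPA1 was at 1557, 2185 and 2279 CPM against 1655, 2289.9 and 2231 CPM, with overlapping groups and a blocked log2 change of 0.053 (SE 0.064).

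MBNL3, at 46.6, 24.6 and 24.5 CPM in shCtrl and 70.2, 33.9 and 36.0 CPM in shRBPMS, was the member that rose with the block (log2 change 0.55, SE 0.072, edgeR adjusted p = 0.00258). The authors' deposited table gives it 0.55 with an adjusted p of 0.0267, their 1 call among members. It was higher with shRBPMS within each label set, but the groups overlap because shCtrl 1 exceeded the set 2 knockdowns. MBNL1 was at 403, 217 and 211 CPM against 273, 187 and 179 CPM (blocked log2 change -0.33, SE 0.077, edgeR adjusted p = 0.0203). CELF2 was at 901, 502 and 511 CPM against 577, 439 and 413 CPM (-0.37, SE 0.087, edgeR adjusted p = 0.0199), and CELF1 at 219, 250.1 and 253 CPM against 161, 201 and 209.7 CPM (-0.33, SE 0.060, edgeR adjusted p = 0.00788). For MBNL1 and CELF2 the set 1 control alone was far above the other libraries.

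PTBP3 was at 223, 159 and 159 CPM in shCtrl and at 159, 130.5 and 128 CPM in shRBPMS (blocked log2 change -0.35, SE 0.062, edgeR adjusted p = 0.00718). PTBP2 was at 68.2, 43.2 and 42.4 CPM against 47.3, 38.3 and 36.5 CPM (-0.30, SE 0.084, edgeR adjusted p = 0.0394). QKI was at 195, 126 and 118 CPM against 148, 105 and 110.03 CPM (-0.24, SE 0.070, edgeR adjusted p = 0.0410). All 3 were lower with shRBPMS within both sets. PTBP1, at 772, 1017 and 989 CPM against 731, 866 and 891 CPM, did not pass (-0.14, SE 0.064), nor did RBFOX2, at 102, 86.0 and 84.3 CPM against 119, 93.9 and 91.5 CPM (0.17, SE 0.062). 

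Marker genes moved with the knockdown group too. Of the 11 Kasumi-1 identity markers 4 were called with group alone. The myeloid surface protein CD33 was at 12.4, 16.1 and 17.6 CPM in shCtrl and at 59.8, 45.4 and 43.9 CPM in shRBPMS (log2 change 1.71, SE 0.21, edgeR adjusted p = 0.0246). SPI1, a myeloid transcription factor, was at 31.9, 47.1 and 45.5 CPM against 119, 117 and 113 CPM. ANPEP, another surface marker of myeloid cells, rose by 1.79, and TRH changed by -3.39. In the blocked fit RUNX1 (-0.29) and RUNX1T1 (-0.68) were called lower as well. Of 5 T cell markers 3 were in the table, and their sum was 10.7 to 12.4 CPM in shCtrl and 3.60 to 4.51 CPM in shRBPMS (CD3D and CD3E, not CD8A, were called lower). EPCAM, the 1 gene of 7 fibroblast and epithelial markers in the table, was at 26.7 to 40.2 CPM in shCtrl and 36.2 to 64.2 CPM in shRBPMS, and was called higher in the blocked fit (0.52, SE 0.084) but not with group alone. The part of these markers in the members' values was not tested.

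**Figure D4:**
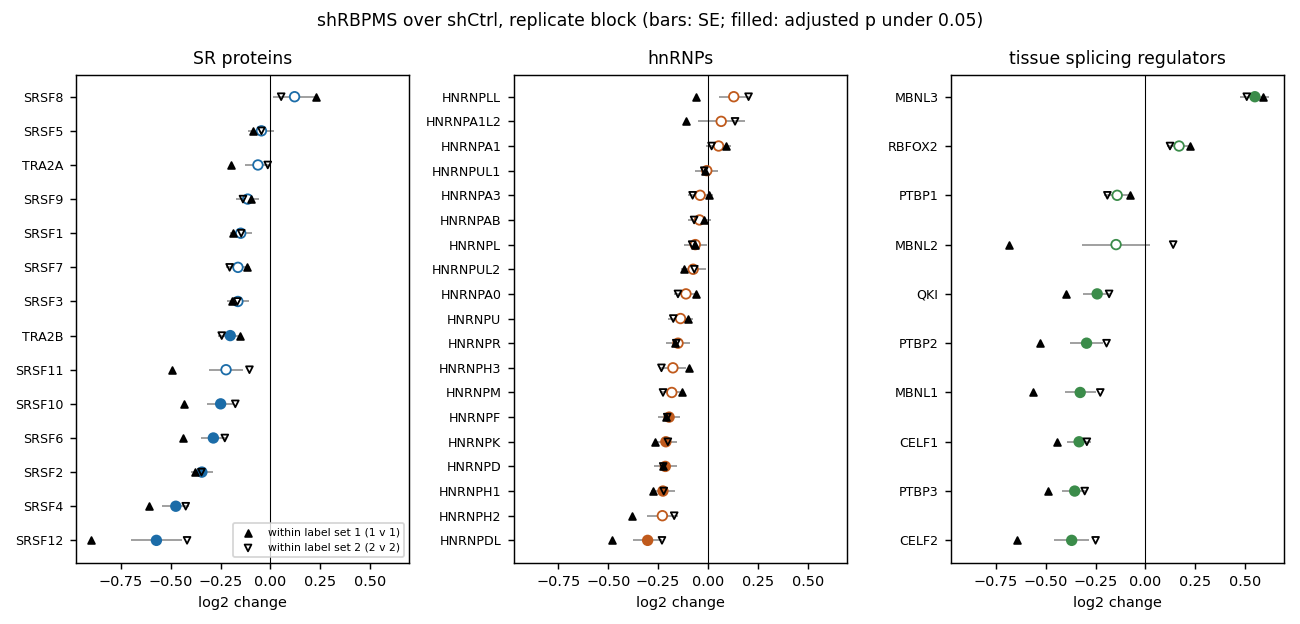
Log2 change of each of the 43 members, shRBPMS over shCtrl, with the replicate number as a block; circles are estimates, bars their SE, filled circles passed an adjusted p of 0.05, and triangles are ratios within label set 1 (1 library a group) and set 2 (2 a group). Most values lie below 0, set 1 often further than set 2, as for CELF2 at -0.64 and -0.25; MBNL3 is the filled circle above 0. Without the block no member passed.

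The label sets differed from each other more than the groups did. By the term for label set, 34 of 43 members differed between sets, 15 higher and 19 lower in set 2 (57.1% of all genes). SRSF9 was at 114 CPM in shCtrl 1 and at 340.1 and 339 CPM in shCtrl 2 and 3. Its term for label set, fitted over the libraries of both groups, was 1.54 (SE 0.054) on the log2 scale. HNRNPA0 followed at 1.02, and MBNL2 was lowest at -1.36. Of the 10 tissue regulators 2 were higher and 8 lower in set 2, while of the 19 hnRNPs 10 were higher and 3 lower. The knockdown effect itself differed between sets for 7 members (16.3%), a share near that of all genes, all with a higher value in set 2 (17.3% of all genes, 8.25% higher and 9.01% lower).

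The experiments share no control, so their effects were compared in 1 model over the 10 libraries. With group alone, SRSF4 was the 1 member of 43 whose effect differed, by 0.69 (SE 0.14, edgeR adjusted p = 0.0249), where 8.15% of 12126 genes did (4.79% higher and 3.36% lower). That call was lost without shCtrl 2, shRBPMS 2, shRBPMS 3 or any of the 4 RB98# experiment libraries, with differences of 0.62 to 0.75. With the block 15 members differed, 12 higher and 3 lower. That was 34.9% of members, near the 37.1% of all genes (18.9% higher and 18.2% lower). This block too counts replicates 2 and 3 of the knockdown as separate pairs. MBNL1 (0.85), SRSF4 (0.69), PTBP3 (0.66), SRSF6, SRSF11, PTBP1, QKI, SRSF5, HNRNPH1, CELF1, HNRNPK and TRA2B had the higher effect with RB98#. SRSF8 (-1.25), MBNL3 (-0.94) and SRSF7 (-0.46) had the lower.

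Setting the blocked knockdown calls beside those of RB98#, 5 members fell in both, 7 fell with shRBPMS and rose with RB98#, and 1, MBNL3, rose with shRBPMS and fell with RB98#. These were 11.6%, 16.3% and 2.33% of the 43 members, beside 2.67%, 4.63% and 3.38% of the 12115 genes tested in both. With RB98# scaled by library totals the 7 became 2, since HNRNPH1, HNRNPK, QKI, SRSF4 and SRSF6 lost their call there (2.97% of all genes). With replicates 2 and 3 summed each of the 3 counts was 1 (1.44%, 2.89% and 2.41% of all genes), SRSF12 falling in both, SRSF4 falling and then rising, and MBNL3 the reverse. In the blocked fit a further 5 fell with shRBPMS alone, 8 fell and 4 rose with RB98# alone, and 13 passed in neither. MBNL1 and MBNL3 took opposite signs to each other in each experiment. With group alone in both fits, not the block, the 2 sets of effects had a Pearson r of -0.13 across the 43 members. Over 12115 genes it was -0.081. Points are genes of the same libraries and are not independent.

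**Figure D5:**
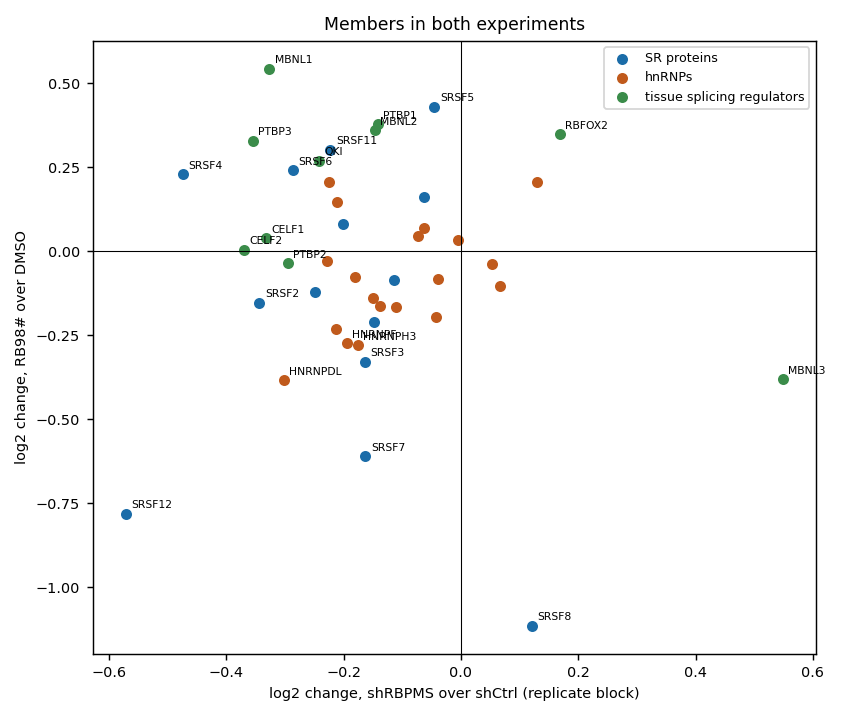
Log2 change of the 43 shared members with RBPMS knockdown (replicate block, horizontal) and with RB98# (vertical), coloured by class; names mark members beyond 0.25 on either axis. MBNL1, PTBP3, SRSF4 and QKI lie at the upper left, MBNL3 with SRSF8 at the lower right, and SRSF12, HNRNPDL and SRSF2 at the lower left.

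The machinery around these genes was counted with the same fits, where 37.8% of all genes were called with RB98# (20.5% higher, 17.3% lower). Of 12 kinases, phosphatases and importins of SR proteins 3 rose and 0 fell (25% called, a share below that of all genes), among them CLK1, which phosphorylates SR proteins in the nucleus. CLK1 was at 100.1 and 99.5 CPM with DMSO and at 186 and 162 CPM with RB98# (log2 change 0.81, SE 0.070, edgeR adjusted p = 2.29e-09), and CLK3 rose by 0.29. SRPK1, the cytoplasmic SR kinase, was at 147 and 139 CPM against 149.8 and 137 CPM (0.0019, SE 0.067). Of 20 SR-related proteins 6 rose, led by PNISR (0.51) and RBM39 (0.42), and 1 fell, U2AF1 (-0.17), the subunit that reads the 3' splice site; the 35% called was near the share of all genes. U2AF1 has a near-identical copy in GRCh38, which makes its level uncertain. It was at 23.2 CPM in shCtrl against 214 CPM in DMSO, and the part of the copy in this gap was not tested. Other listed genes had wide gaps too, such as PCBP1 (34.0 against 285 CPM) and RBM4 (23.0 against 120 CPM).

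Of 23 U1, U2 and Sm proteins 3 rose, led by SF3B1 (0.38) and SF3A1 (0.23), and 1, SF3B4, fell (-0.27). Of 17 tri-snRNP and Prp19 complex genes 2 rose, CDC5L (0.29) and SNRNP200 (0.19), and 1 fell, PRPF4 (-0.39). Both lists, with 17.4% and 17.6% called, were below the 37.8% of all genes. Other alternative splicing factors counted 8 higher and 5 lower of 27, with RBM15 (0.68) and RBM5 (0.46) against ESRP1 (-0.55) and SYNCRIP (-0.31). Nonsense-mediated decay factors counted 3 higher, among them CASC3 (0.33) and SMG5 (0.29), and 3 lower, among them MAGOHB (-0.43) and UPF2 (-0.21), of 15. These 2 lists had 48.1% and 40% called. On the scale of library totals, where 40.3% of all genes were called (13.7% higher, 26.6% lower), the counts higher and lower were 1 and 1 for the kinase list, 5 and 6 for SR-related proteins, 1 and 9 for U1, U2 and Sm proteins, 1 and 5 for the tri-snRNP list, 3 and 8 for other splicing factors and 3 and 10 for decay factors.

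With RBPMS knockdown none of these 6 lists had a call with group alone. In the blocked fit the counts were 1 higher and 3 lower for the kinase list, 1 and 2 for SR-related proteins, 0 and 3 for U1, U2 and Sm proteins, 0 and 5 for the tri-snRNP list, 2 and 4 of 29 for other splicing factors, and 2 and 4 for decay factors. The shares called were 33.3%, 15%, 13%, 29.4%, 20.7% and 40%, where 28.1% of all genes passed (13.3% higher and 14.8% lower). With replicates 2 and 3 summed, 1 gene of the kinase list (CLK1) and 1 SR-related protein passed, and 0 of the other 4 lists (16.4% of all genes). CLK1 was at 182, 81.0 and 82.1 CPM in shCtrl and at 98.9, 67.1 and 59.0 CPM in shRBPMS (blocked log2 change -0.53, SE 0.11, edgeR adjusted p = 0.0118). CLK2 (-0.32), PRPF19 (-0.38) and SNRPG (-0.32) also fell there. The log2 ratio of CLK1 was -0.88 in set 1 and -0.37 in set 2. The knockdown effect differed between label sets for 58.3% of the kinase list and 40% of SR-related proteins. It did so for 26.1% of U1, U2 and Sm proteins and 27.6% of other splicing factors. For the tri-snRNP list and decay factors the count was 0, where 17.3% of all genes differed. Between experiments, CASC3, a core subunit of the exon junction complex, was the 1 gene of these lists whose effect differed with group alone (0.60, SE 0.13, edgeR adjusted p = 0.0315).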

How the data were processed

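Genes of the 2 RNA-seq experiments were analysed from the authors' deposited tables of raw read counts per gene, 1 table an experiment, which also hold the authors' own log2 fold changes and adjusted p-values, per the file headers. Tools listed in the submitters' processing notes include featureCounts 2.0.1, DESeq2 1.32.0 and the aligner HISAT2 2.2.1 (build hg38), with fastp 0.22.0; the notes as given here assign no step to a tool. Annotation version and strand setting are not given in the sources used here. For RB98#, 112 repeated lines of 12437 were dropped, and 10 further columns of per-library values were not used.

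Each table was fitted apart with edgeR 4.0.16 (R 4.3.3): TMM factors, filterByExpr with a minimum count of 10 and a total of 15, and the two-sided quasi-likelihood F test with group alone, with Benjamini-Hochberg adjustment over all genes tested at 0.05. The SE is the log2 change over the square root of F. Levels are CPM on TMM-scaled library sizes. Effects of the 2 experiments were compared in 1 fit over 10 libraries. Alternatives were DESeq2 1.42.0, other size factors, no filter, a replicate block, the label set and leaving out each library. Scripts were tested on simulated data. Exon lengths and overlaps come from GENCODE 29, and promoters from RefSeq GRCh38.p14.

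Deviations of same-numbered shCtrl and shRBPMS libraries from their group means correlated at 0.73, 0.53 and 0.54 over 16215 genes. Crossing replicates 2 and 3 gave 0.54 and 0.53, so the correlation follows the label set and not the number within set 2. For DMSO and RB98# the correlation was -0.046. The replicate number was used as a block in alternative fits only, and the main fits have group alone.

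Members, lists and tests were chosen with earlier results of these data known. Values in every library are given for up to 8 called members with the largest change in each experiment and fit, up to 6 by difference of effects, and PTBP1, PTBP2, MBNL1, QKI, RBFOX2, CELF2, TRA2A, TRA2B, SRSF1, SRSF3 and HNRNPA1. For other lists up to 2 called genes a direction are named, with U2AF1, CLK1, SRPK1 and RBPMS. Of B cell markers 4 of 5 were in the knockdown table and 3 in the RB98# table, T cell markers 3 and 2 of 5, fibroblast and epithelial markers 1 of 7 in each (EPCAM), and erythroid markers 0 of 6.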

Additional observations from a re-analysis of the deposited data

Results flagged for a closer look

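The knockdown effect differed between the label sets for 7 of 43 members (16.3%) by edgeR's test of the interaction of group and label set, added after seeing the data, where 17.3% of all genes did; the count is therefore at the background share. As log2 effect in set 2 minus set 1, the values were 0.79 for MBNL2, 0.36 for CELF2, 0.35 for SRSF11, 0.30 for MBNL1, 0.30 for PTBP2, 0.22 for SRSF10 and 0.22 for HNRNPDL. All 7 are positive: the ratio of shRBPMS to shCtrl was lower in set 1 than in set 2. Of all genes, 8.25% were called higher and 9.01% lower by this test. RBPMS itself had a log2 ratio of -3.05 in set 1 and -1.19 in set 2. The part of this unequal depletion in the members' values was not tested. For MBNL2 the ratios had opposite signs, -0.68 in set 1 (28.7 CPM in shCtrl 1 and 17.9 in shRBPMS 1) and 0.14 in set 2. Set 1 has 1 library a group, so the error rests on the set 2 replicates.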

How the results depend on the processing

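The knockdown count of 0 called members stayed at 0 with DESeq2 size factors, library totals, no filter and each library left out (0 to 0), was 1 with DESeq2's test, 18 with the replicate block, 27 with the label set as a covariate, 32 in label set 2 alone and 3 with replicates 2 and 3 summed, an alternative added after seeing the data. The RB98# count of 25 was 25 or 26 under other scalings, no filter and DESeq2, 21 with the replicate block, and 13 to 28 with a library left out. The count of 1 for the difference of effects was 2 with library totals, 5 with DESeq2 and 15 with the replicate block, and 0 to 3 with a library left out, the 3 being without shCtrl 1. Signs reversed for uncalled changes near 0. In the knockdown these were HNRNPA1 (-0.12 without shCtrl 1, -0.032 without shRBPMS 2, -0.025 without shRBPMS 3, up to 0.17), SRSF8 (-0.12 without shRBPMS 1, up to 0.31) and TRA2A (0.044 without shCtrl 1, down to -0.16). With RB98#, library totals gave -0.063 for CELF1, -0.096 for CELF2 and -0.019 for TRA2B. Without DMSO 1 the values were -0.0029 for CELF1 (range to 0.081), -0.017 for CELF2 and 0.0082 for PTBP2. CELF2 was at -0.024 without RB98# 1 (range to 0.028) and PTBP2 at 0.024 without RB98# 2 (range to -0.11). For the difference, HNRNPA1 was at 0.046 without shCtrl 1 (range to -0.24), and SRSF12 at 0.016 without shCtrl 2, 0.015 without shRBPMS 1 and 0.12 without RB98# 1 (range to -0.58). The cause of these shifts was not tested. With 2 or 3 libraries a group, the little expressed members SRSF12 and MBNL2 had large errors (SE 0.21 and 0.16 with RB98#).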
